A study of Homo sapiens with 4 samples.

Results

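The 10 genes described here make, store, recover and break down acetylcholine or receive it: CHAT, SLC18A3, SLC5A7, SLC44A1, ACHE, BCHE, COLQ, PRIMA1, CHRM2 and CHRM3. They were taken by gene symbol from the deposited counts, and all 10 were found among its 55765 symbols. The cells were SK-N-BE(2)C, a clonal subline of a human neuroblastoma line with amplified MYCN. They were kept for 144 h with 10 µM ATRA (all-trans retinoic acid, the acid form of vitamin A) in 2 libraries, called ATRA 1 and ATRA 2. The control cells received ethanol, the solvent, for the same 144 h in 2 libraries, called ethanol 1 and ethanol 2. Both groups carried no other genetic change or agent named in the labels and grew in the same serum-containing medium. RNA was total RNA depleted of ribosomal RNA and made into directional libraries. All results are for 1 cell line. No label ties a library to a culture of its own, so the p-values reflect the scatter of these 4 libraries only, and that scatter may be technical.

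Choline acetyltransferase makes acetylcholine from choline and acetyl-CoA, and a vesicular transporter packs it for release. Acetylcholinesterase ends the signal in the synapse, and a high-affinity transporter takes the freed choline back into the nerve ending. Muscarinic receptors, which couple to G proteins, read the signal on the target cell. Most sympathetic neurons use noradrenaline, while a minority, such as those that supply sweat glands, are cholinergic.

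The libraries held 15518828 and 16498355 counts in ATRA 1 and ATRA 2, and 12850462 and 19883465 counts in ethanol 1 and ethanol 2. A single read was worth between 0.0496 and 0.0770 CPM (the count scaled to the TMM-adjusted library size). Mitochondrial ribosomal RNA took 2.49% of ATRA 1 and 0.130% of ATRA 2, against 5.96% of ethanol 1 and 0.0291% of ethanol 2. Libraries therefore differed by the number in their titles as well as by treatment, and differences between libraries of the same number stand beside the fitted ones. The 10 markers of adrenergic neuroblastoma were read in all libraries, from 4412 to 4952 CPM in sum with ATRA and from 5380 to 5746 CPM with ethanol. Of 20 markers of other cell types, 10 stayed under 1 CPM in every library and 2 of these, LYZ and MYOD1, had no read. Their sum was 106 and 298 CPM with ATRA against 189 and 445 CPM with ethanol. Within that list the fibroblast genes COL1A1 and PDGFRA and the glial gene S100B were higher in both ATRA libraries, and LUM was lower. Their part in the results below was not tested. In bulk RNA, fewer expressing cells and less RNA per cell cannot be told apart.

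The promoter windows of 6 of the genes are printed here because these genes carry the contrasts described below: CHAT and SLC18A3 share a locus, COLQ and PRIMA1 anchor the same enzyme and differed in opposite directions, and ACHE and CHRM3 had large differences. Each window runs 5′ to 3′ from 250 bases before a start site to 50 bases after it, as given by RefSeq for GRCh38.p14. Where a gene has several start sites (CHAT and ACHE), the most upstream window is shown. Capitals mark a half-site of the retinoic acid receptor.
CHAT, chr10:49608845-49609144, plus strand: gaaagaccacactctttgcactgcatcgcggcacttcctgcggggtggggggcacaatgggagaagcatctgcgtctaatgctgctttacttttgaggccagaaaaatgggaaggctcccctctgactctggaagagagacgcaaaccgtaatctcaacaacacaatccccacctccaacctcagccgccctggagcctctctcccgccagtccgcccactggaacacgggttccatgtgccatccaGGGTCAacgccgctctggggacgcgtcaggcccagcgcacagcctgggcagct
SLC18A3, chr10:49610060-49610359, plus strand: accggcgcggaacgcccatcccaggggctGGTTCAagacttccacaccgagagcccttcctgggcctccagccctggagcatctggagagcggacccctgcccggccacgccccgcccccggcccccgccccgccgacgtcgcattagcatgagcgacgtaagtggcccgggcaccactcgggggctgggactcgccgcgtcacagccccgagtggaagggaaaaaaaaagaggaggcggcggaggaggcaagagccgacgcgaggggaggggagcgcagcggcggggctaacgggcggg
ACHE, chr7:100896080-100896379, minus strand: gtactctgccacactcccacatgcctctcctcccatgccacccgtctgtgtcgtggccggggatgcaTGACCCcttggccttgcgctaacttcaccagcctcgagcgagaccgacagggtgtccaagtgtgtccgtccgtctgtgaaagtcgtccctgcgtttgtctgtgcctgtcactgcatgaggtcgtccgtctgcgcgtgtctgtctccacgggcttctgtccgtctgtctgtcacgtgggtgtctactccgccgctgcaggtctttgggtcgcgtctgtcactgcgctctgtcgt
COLQ, chr3:15498823-15499122, minus strand: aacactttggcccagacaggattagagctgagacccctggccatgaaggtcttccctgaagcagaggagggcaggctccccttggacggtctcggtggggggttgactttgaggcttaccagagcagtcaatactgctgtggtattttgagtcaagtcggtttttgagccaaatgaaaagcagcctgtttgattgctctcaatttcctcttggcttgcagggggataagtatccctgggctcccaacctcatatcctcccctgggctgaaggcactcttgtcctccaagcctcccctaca
PRIMA1, chr14:93788436-93788735, minus strand: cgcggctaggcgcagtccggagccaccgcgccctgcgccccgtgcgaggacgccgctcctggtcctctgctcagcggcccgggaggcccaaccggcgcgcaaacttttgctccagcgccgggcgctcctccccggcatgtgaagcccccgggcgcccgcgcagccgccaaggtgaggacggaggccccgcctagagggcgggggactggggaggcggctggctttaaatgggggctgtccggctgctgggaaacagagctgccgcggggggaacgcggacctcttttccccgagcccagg
CHRM3, chr1:239386318-239386617, plus strand: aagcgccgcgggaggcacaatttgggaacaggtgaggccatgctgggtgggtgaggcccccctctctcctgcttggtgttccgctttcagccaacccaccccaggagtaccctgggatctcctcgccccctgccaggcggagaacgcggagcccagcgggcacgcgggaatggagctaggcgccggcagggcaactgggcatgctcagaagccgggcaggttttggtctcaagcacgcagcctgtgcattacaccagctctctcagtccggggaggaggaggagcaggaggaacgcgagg

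The half-site search used AGGTCA or GGGTCA or AGTTCA or GGTTCA on both strands. All 10 genes had a window and together they had 16, with 3 windows each for CHAT, ACHE and CHRM2 and 1 for each of the other 7 genes. A half-site was present in 5 of the 16 windows, against 38.6% of 35116 RefSeq promoter windows of the same length. CHAT held gggtca 3 bases before its most upstream start, SLC18A3 held ggttca 221 bases before its start, and ACHE held tgaccc, the opposite strand of gggtca, 183 bases before its most upstream start. The remaining matches were a single aggtca in the overlap of 2 CHRM2 windows. COLQ, PRIMA1 and CHRM3 held no half-site in these windows. A direct repeat of these half-sites with 1, 2 or 5 bases between them, the arrangements that retinoid receptor dimers are known to bind, was found in 0 of the 16 windows. Among all windows such repeats occurred in 0.131%, 0.0399% and 0.0883%. A GC box (GGGCGG, both strands) was in 12 of the 16 windows, against 45% of all. The 16 windows are not independent, as CHAT, ACHE and CHRM2 gave 3 each. The 2 overlapping CHRM2 windows held a GC box in common. A TATA box (TATAAA, both strands) was in 2, those of SLC5A7 and BCHE, against 11.5% of all. The printed COLQ window was less rich in G and C, at 53.7%, than those of SLC18A3 at 72% and PRIMA1 at 74.3%, and BCHE had the lowest value of the 16, 36.7%. These matches describe letters, and binding was not measured.

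Did ATRA change the expression of the cholinergic genes? None of the 9 genes with enough reads to be tested passed the test over all genes, and the differences pointed both ways: COLQ, ACHE, CHRM3 and SLC18A3 were higher in both ATRA libraries, PRIMA1 and CHAT were lower in both, and BCHE, SLC44A1 and CHRM2 were within 1.2-fold on average. SLC5A7 was almost without reads. Of the 10, 9 passed the filter on low counts. In edgeR's quasi-likelihood test 0 members were called higher and 0 lower at an adjusted p under 0.05, where 0.545% of the 18900 genes tested were called higher and 0.153% lower. At an unadjusted p under 0.05, 4 members were higher and 1 was lower, against 9.43% and 6.49% of all genes. The ATRA libraries lay wholly above the ethanol libraries for 5 of the 9 and wholly below for 2, against 23.8% and 21.7% of all genes tested. The median log2 fold change of the 9 was 0.23, with 0.33 and 0.14 between libraries numbered 1 and 2, beside 0.01 over all genes.

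**Figure D1:**
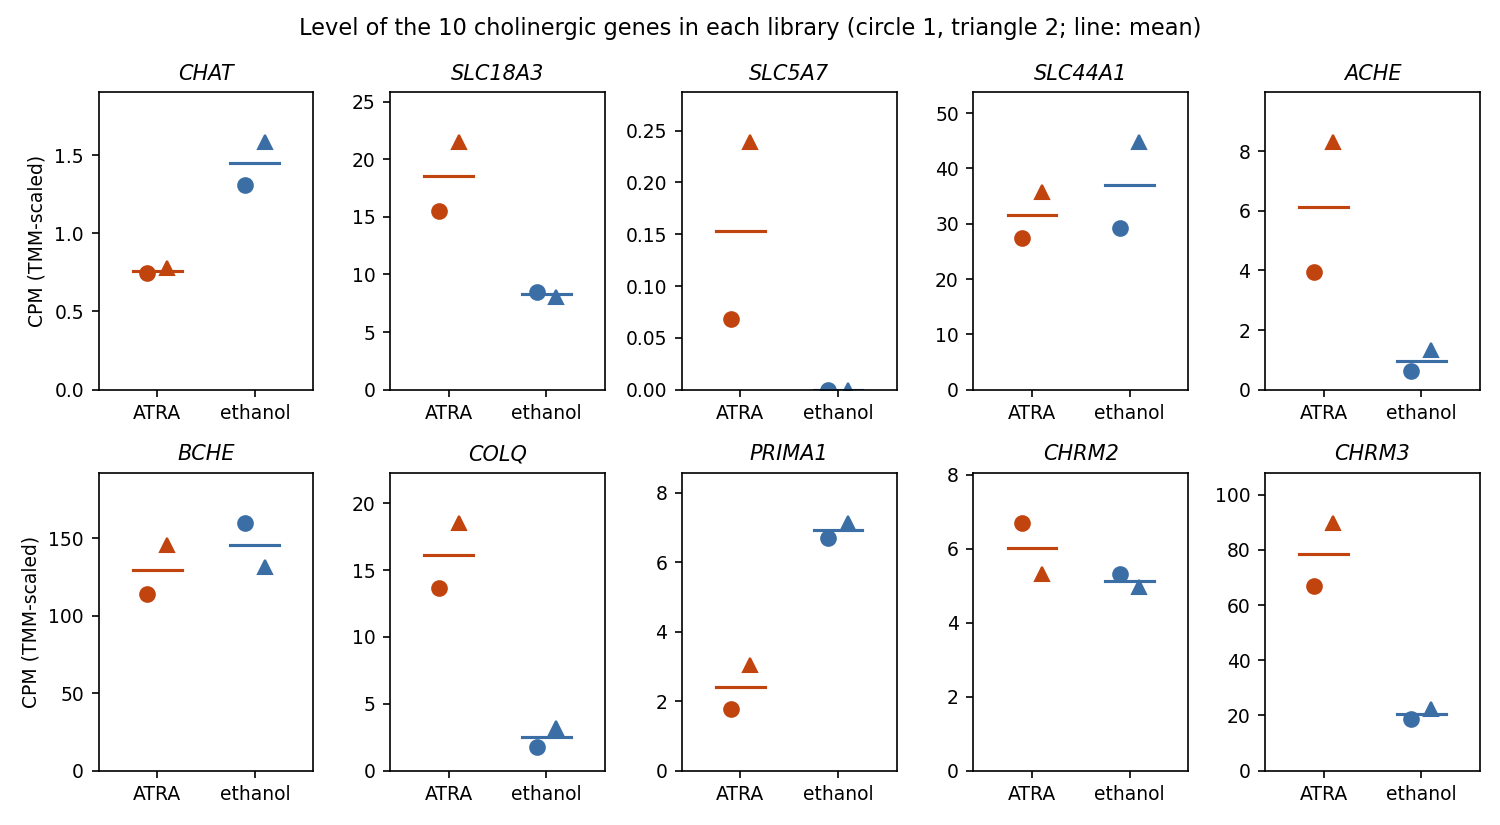
CPM of each of the 10 genes (vertical axes, each from 0, on TMM-scaled library sizes) in the 2 ATRA and 2 ethanol libraries; circles are libraries 1, triangles libraries 2 and lines the means. COLQ, ACHE, CHRM3 and SLC18A3 lie higher with ATRA, PRIMA1 and CHAT lower, and BCHE and SLC44A1 overlap.

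Of the genes for making and packing the transmitter, neither passed the test. CHAT, the synthesising enzyme, had 11 and 13 reads in ATRA 1 and ATRA 2, against 17 and 32 reads in ethanol 1 and ethanol 2. Its level was 0.761 ± 0.0231 CPM with ATRA and 1.45 ± 0.196 CPM with ethanol (SD, n = 2 each). Both ATRA values were lower, but the log2 fold change of -0.92 had a 95% interval of -2.40 to 0.56 and an adjusted p of 0.557 (edgeR quasi-likelihood). At this depth a fall of CHAT by more than 5-fold or a small gain would both lie inside that interval. SLC18A3, the vesicular acetylcholine transporter, had 15.5 and 21.5 CPM in the ATRA libraries, against 8.47 and 8.08 CPM in the ethanol libraries. The groups did not overlap, and the ethanol libraries lay close together while the ATRA libraries differed. The log2 fold change was 1.16 ± 0.34 (SE), 0.86 and 1.40 between libraries of the same number, with an adjusted p of 0.172 (edgeR quasi-likelihood).

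SLC18A3 is a gene with a single exon that lies inside the span of CHAT on the same strand of chromosome 10. In the RefSeq windows its start lies 1215 bases downstream of the first CHAT start and 2788 bases upstream of the next. In GENCODE 29 the pair shares 0 exonic bases. The ratio of their reads differed between the groups: CHAT had 0.0480 and 0.0361 reads for each SLC18A3 read with ATRA, against 0.155 and 0.196 with ethanol. On the log2 scale, with 1 added to each count, the difference was -2.01, and the ATRA and ethanol libraries did not overlap. With 2 libraries a group an exact permutation test cannot give a two-sided p below 0.333, so such ratios are given as values.

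Choline is taken up by the products of SLC5A7 and SLC44A1. SLC5A7, the high-affinity choline transporter of cholinergic nerve endings, had 1 and 4 reads with ATRA and no read with ethanol. Its 5 reads with ATRA, set against a floor of 3 reads over the ethanol group, gave a depth-scaled ratio of 1.76. That ratio takes the ATRA reads as counted, so it is not a lower bound on the difference. SLC5A7 failed the filter and was not tested. SLC44A1, a choline transporter found in most cell types, had 27.5 and 35.7 CPM with ATRA against 29.3 and 44.8 CPM with ethanol. The groups overlapped, and its log2 fold change of -0.23 had a 95% interval of -1.005 to 0.54. Its sign turned to 0.13 without ethanol 2.

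The cholinesterases, which split acetylcholine, did not differ alike. ACHE, the synaptic enzyme, had 58 and 139 reads in the ATRA libraries, against 8 and 27 reads in the ethanol libraries. These are 3.93 and 8.32 CPM with ATRA, and 0.616 and 1.34 CPM with ethanol. Every ATRA value lay above every ethanol value, although the libraries of each group differed about as much in proportion. The log2 fold change was 2.62 ± 0.68 (SE), 2.45 and 2.53 between libraries of the same number. It was 1.96 without ATRA 2 and 3.32 without ethanol 2. The 95% interval ran from 0.96 to 4.27, and the adjusted p was 0.142 (edgeR quasi-likelihood). BCHE, the broader esterase best known from plasma and glia, was the most abundant member, with 113.8 and 146 CPM with ATRA against 160 and 132 CPM with ethanol. The groups overlapped, the log2 fold change was -0.17 ± 0.26 (SE), and the 95% interval of -0.81 to 0.47 leaves room for less than a 2-fold difference either way. ACHE thus gave 0.0345 and 0.0570 reads for each BCHE read with ATRA, against 0.00384 and 0.0101 with ethanol. That log2 ratio was 2.74 higher with ATRA, 3.02 and 2.45 between libraries of the same number, while BCHE reads still far outnumbered ACHE reads in every library.

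The genes for the anchors of the esterase tetramers lay on opposite sides. COLQ encodes the collagen tail that fixes acetylcholinesterase in the matrix of the neuromuscular junction, and PRIMA1 encodes the short membrane protein that holds it on neurons. COLQ had 202 and 310 reads with ATRA, against 23 and 65 reads with ethanol, or 16.1 ± 3.44 CPM with ATRA and 2.50 ± 1.03 CPM with ethanol (SD, n = 2 each). The groups lay far apart, with the lower ATRA library more than 4-fold above the higher ethanol library in CPM. Its log2 fold change of 2.67 ± 0.46 (SE) stood at rank 507 from the top of the 18900 genes, and its adjusted p was 0.0704 (edgeR quasi-likelihood). PRIMA1 had 26 and 51 reads with ATRA, against 87 and 144 reads with ethanol, or 2.41 ± 0.912 CPM with ATRA and 6.92 ± 0.309 CPM with ethanol (SD, n = 2 each). Both ATRA libraries were below both ethanol libraries. Its log2 fold change was -1.52 ± 0.50 (SE), -1.86 and -1.19 between libraries of the same number, with an adjusted p of 0.213 (edgeR quasi-likelihood). COLQ gave 7.77 and 6.08 reads for each PRIMA1 read with ATRA, against 0.264 and 0.451 with ethanol, so the more read of the anchors differed between the groups. The log2 ratio differed by 4.25, the largest of the 4 pairs compared, and by 4.78 and 3.72 between libraries of the same number.

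COLQ shares 462 exonic bases with EAF1, a gene for a transcription elongation factor partner on the opposite strand, and 414 with EAF1-AS1 on its own strand. The strand setting of the counting is not given in the sources used here. EAF1 had 54.6 and 53.4 CPM with ATRA against 24.9 and 31.0 CPM with ethanol, a log2 fold change of 0.95 that was smaller than that of COLQ. EAF1-AS1 was near 1 CPM in all libraries. The part of these neighbours in the COLQ counts was not tested.

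The muscarinic receptors among the members also differed from each other. CHRM3, whose receptor couples to Gq and phospholipase C, had 987 and 1503 reads with ATRA against 245 and 451 reads with ethanol. Its levels were 66.9 and 89.9 CPM with ATRA, and 18.9 and 22.3 CPM with ethanol. The groups did not overlap, and the lower ATRA library was about 3-fold above the higher ethanol library in CPM. The log2 fold change was 1.93 ± 0.28 (SE), 1.82 and 2.00 between libraries of the same number, with a 95% interval of 1.24 to 2.61. Its adjusted p of 0.0528 was the smallest of the members and lay just above the threshold (edgeR quasi-likelihood). CHRM2, whose receptor couples to inhibitory G proteins, had 6.71 and 5.32 CPM with ATRA against 5.31 and 4.96 CPM with ethanol. The groups were separated by less than a single read, and the log2 fold change was 0.23 with a 95% interval of -0.79 to 1.25. CHRM3 gave 9.97 and 16.9 reads for each CHRM2 read with ATRA, against 3.55 and 4.51 with ethanol, a log2 difference of 1.70.

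CHRM3 carries an antisense gene, CHRM3-AS2, that overlaps it by 269 exonic bases. CHRM3-AS2 had 124 and 103 reads with ATRA, against 20 and 21 reads with ethanol. Its log2 fold change was 2.50 ± 0.52 (SE) with an adjusted p of 0.0954 (edgeR quasi-likelihood). Since the strand setting is not given, its reads and those of CHRM3 may be mixed in the overlap. CHRM3 had at least 7 times as many reads in every library. The part of either gene in the counts of the other was not tested.

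**Figure D2:**
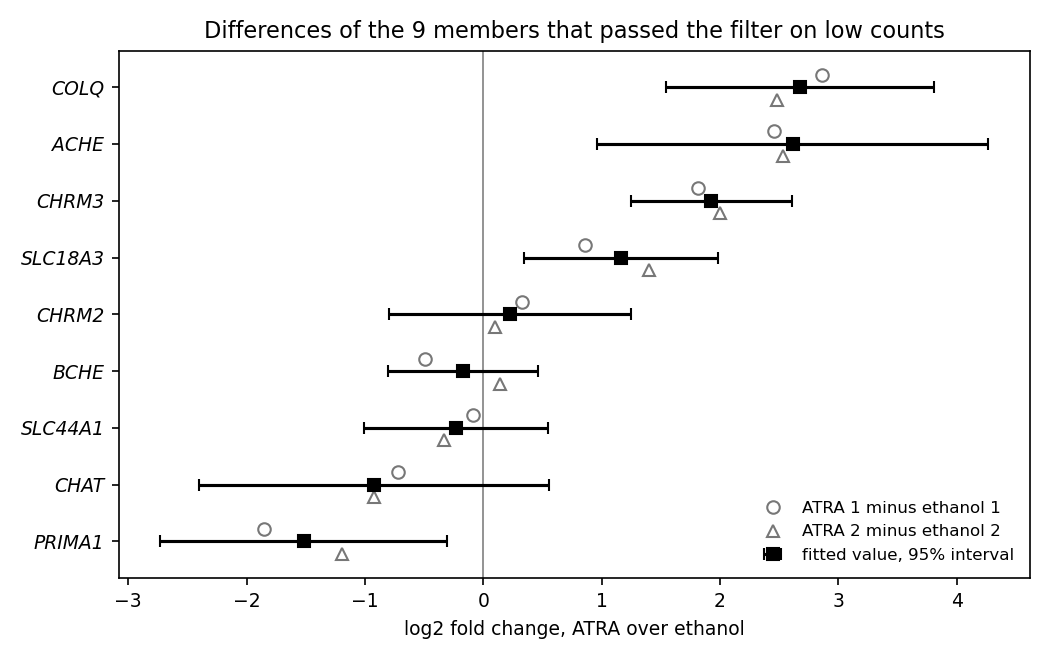
Log2 fold change of ATRA over ethanol (horizontal axis) for the 9 genes that passed the filter; squares are fitted values with 95% intervals, and open symbols are the differences between libraries of the same number. COLQ at 2.67 and ACHE at 2.62 lie farthest to the right and PRIMA1 at -1.52 farthest to the left.

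The calls for CHRM3, COLQ and ACHE depended on the fit, although their directions did not in any of the 11 alternatives counted here. CHRM3 passed in 8 of these 11, COLQ in 7 and ACHE in 4. The 11 leave out the fit with the replicate number as a block, a number that no label explains. These genes also passed in that fit, as did SLC18A3 (higher) and PRIMA1 (lower). It called 12.3% of all genes higher and 9.38% lower. Included are the fit on protein-coding genes only, chosen after seeing the data, and the fits that leave out 1 library. Without 1 library the log2 fold change of CHRM3 was 2.11 (ATRA 1 left out), 1.69 (ATRA 2), 1.76 (ethanol 1) and 2.07 (ethanol 2). In the same order of libraries that of COLQ was 2.86, 2.43, 2.27 and 3.20. For ACHE it was 3.04, 1.96, 2.14 and 3.32. The SE of each gene was larger in these fits than with all 4 libraries, for CHRM3 0.41 to 0.52 against 0.28. A pass in them therefore does not reflect less scatter. These fits take the lone library to vary like the other group, and they called more genes in general: 3.08%, 4.05%, 2.68% and 3.98% of all genes were higher in them. DESeq2 called the same 3 members higher, with adjusted p of 9.39e-06 for CHRM3, 2.52e-05 for COLQ and 0.0105 for ACHE, where it called 5.03% of genes higher. With limma-voom 0 members were called, where 0.228% of genes were called higher. At an unadjusted p under 0.05 in the edgeR test the members were CHRM3, COLQ, ACHE and SLC18A3 above and PRIMA1 below.

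**Figure D3:**
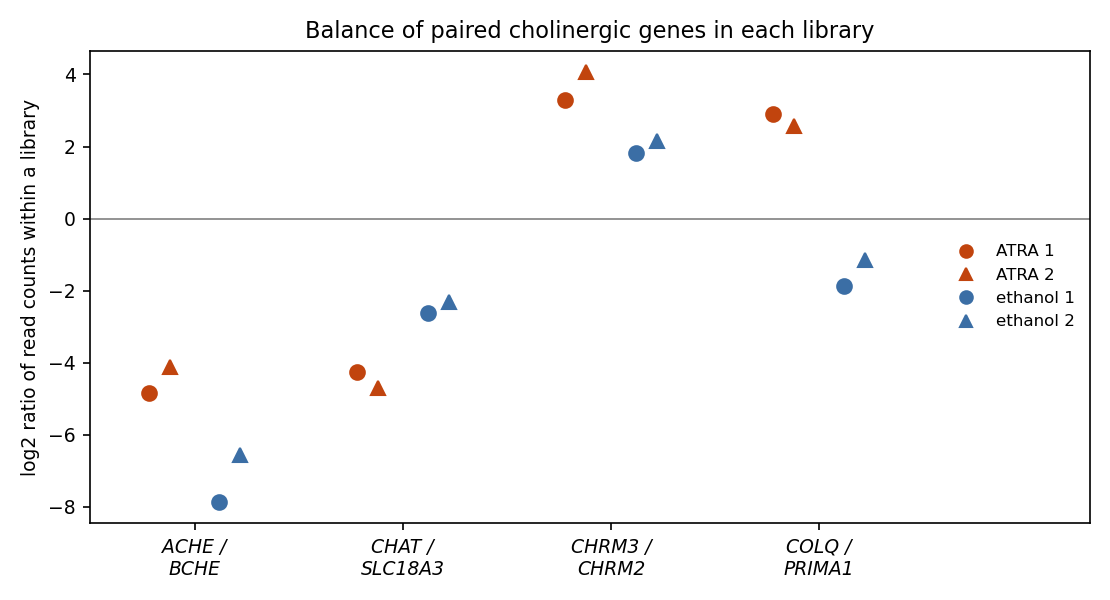
Log2 ratio of read counts of 2 genes within a library (vertical axis, 1 added to each count) for 4 pairs; red is ATRA, blue is ethanol, circles libraries 1 and triangles libraries 2. The pair of anchors, COLQ over PRIMA1, lies above 0 in the ATRA libraries at 2.91 and 2.58 and below 0 in the ethanol libraries at -1.87 and -1.14.

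Levels can be compared between the genes only per length of exon, here as CPM per kb of the union of GENCODE 29 exons. With ATRA the order ran BCHE (42.1 ± 7.34 CPM per kb), SLC18A3 (7.65 ± 1.76), CHRM3 (6.44 ± 1.34), COLQ (3.86 ± 0.824), SLC44A1 (2.60 ± 0.477), ACHE (1.62 ± 0.820), CHRM2 (0.723 ± 0.117), PRIMA1 (0.618 ± 0.234), CHAT (0.203 ± 0.00615) and SLC5A7 (0.0297 ± 0.0235), each mean ± SD with n = 2. The neighbours SLC18A3 and CHRM3, and CHRM2 and PRIMA1, overlapped between libraries. With ethanol the order ran BCHE (47.4 ± 6.51 CPM per kb), SLC18A3 (3.42 ± 0.115), SLC44A1 (3.04 ± 0.905), PRIMA1 (1.78 ± 0.0794), CHRM3 (1.69 ± 0.202), CHRM2 (0.617 ± 0.0304), COLQ (0.598 ± 0.246), CHAT (0.386 ± 0.0522) and ACHE (0.258 ± 0.135), with SLC5A7 without reads. Here SLC18A3 and SLC44A1, PRIMA1 and CHRM3, CHRM2 and COLQ, and CHAT and ACHE overlapped. BCHE led in all 4 libraries by a wide margin, and the gene for the synthesising enzyme stood near the bottom in both groups. The annotation behind the deposited counts is not given, so these lengths are approximate.

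How did other genes of the pathway behave? The lists that follow were read in the same fit, and of the 8 lists 7 had no member called in either direction. Among the other muscarinic receptors, 0 of 3 were called. CHRM1 had 6.43 and 4.97 CPM with ATRA against 11.5 and 6.99 CPM with ethanol, and CHRM5 had 4.81 and 2.81 CPM with ATRA against 4.00 and 0.991 CPM with ethanol. CHRM4, named after its values were seen, had 78 and 11 reads with ATRA against 2 and 3 reads with ethanol. Its ATRA libraries differed 8-fold in CPM between themselves, and its adjusted p was 0.169 (edgeR quasi-likelihood). None of the 5 muscarinic receptor genes in these cells was at 0 in any library.

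For choline uptake and phosphatidylcholine, 0 of 17 tested genes were called (median log2 fold change 0.08). GDPD5, a phosphodiesterase that frees choline from glycerophosphocholine, had 6.84 and 7.42 CPM with ATRA, against 44.6 and 26.8 CPM with ethanol. Its log2 fold change was -2.32 ± 0.36 (SE) with an adjusted p of 0.0592 (edgeR quasi-likelihood). SLC44A5, a relative of SLC44A1, had 6.10 and 17.8 CPM with ATRA against 0.308 and 2.68 CPM with ethanol, with wide spread in both groups. For acetyl-CoA supply, 0 of 8 were called and the median was -0.21. DLAT and PDHA1, both parts of the pyruvate dehydrogenase complex, were at -0.51 and -0.47.

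Signalling below the muscarinic receptors showed 0 of 24 tested genes called and a median of -0.04. PRKCE and PRKCA, genes of protein kinase C isoforms, lay on opposite sides, at 1.04 ± 0.25 and -1.59 ± 0.43 on the log2 scale (SE), with adjusted p of 0.127 and 0.151 (edgeR quasi-likelihood). PRKCA had 41.6 and 19.7 CPM with ATRA against 73.6 and 111 CPM with ethanol. Among genes of esterase anchoring and endplate assembly 0 of 7 were called, and the median was 0.76. AGRN, for the matrix protein agrin that gathers receptors at the endplate, had 54.8 and 52.8 CPM with ATRA against 19.3 and 14.0 CPM with ethanol. COL13A1, for a membrane collagen of the endplate, had 32.0 and 39.5 CPM with ATRA against 0.385 and 2.43 CPM with ethanol. Both had an adjusted p of 0.0657 (edgeR quasi-likelihood), and both groups of libraries lay apart as they did for COLQ. The list did not move as 1: ATRA libraries lay wholly above for 3 of the 7 and wholly below for 1. These compare with 23.8% and 21.7% of all genes tested. The lower gene, HSPG2, named after its values were seen, had 2.24 and 2.81 CPM with ATRA against 3.62 and 6.09 CPM with ethanol. Defining genes of skeletal muscle were at or near 0: MYOD1 had no read, and MYOG, DES and CKM had at most 3 reads in any library.

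Of the neuroligins, which share the esterase fold, 0 of 2 tested genes were called; NLGN2 had 4.88 and 8.61 CPM with ATRA against 2.77 and 7.33 CPM with ethanol. Among fate factors and cytokine receptors linked to the cholinergic type, 0 of 18 tested genes were called, with values from -2.65 to 5.40 on the log2 scale. REST, a repressor of neuronal genes, had 46.0 and 8.32 CPM with ATRA against 0.924 and 0.396 CPM with ethanol. Its log2 fold change was 5.40 ± 0.99 (SE), with an adjusted p of 0.0781 (edgeR quasi-likelihood), and its ATRA libraries differed by more than 5-fold. Of 6 noradrenergic genes tested, 1 fell, where 0.153% of all genes were called lower. It was SLC18A1, a vesicular monoamine transporter, with 24.8 and 26.6 CPM with ATRA against 125 and 105 CPM with ethanol (log2 fold change -2.16, adjusted p 0.0397, edgeR quasi-likelihood). The other vesicular monoamine transporter, SLC18A2, had 12.9 and 58.6 CPM with ATRA against 19.2 and 41.1 CPM with ethanol, and the groups overlapped. TH, DDC and DBH, enzymes of catecholamine synthesis, also overlapped between the groups, at -0.38, 0.03 and -0.79 on the log2 scale. SLC6A2, the noradrenaline transporter, was at 0.32 and was not called.

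**Figure D4:**
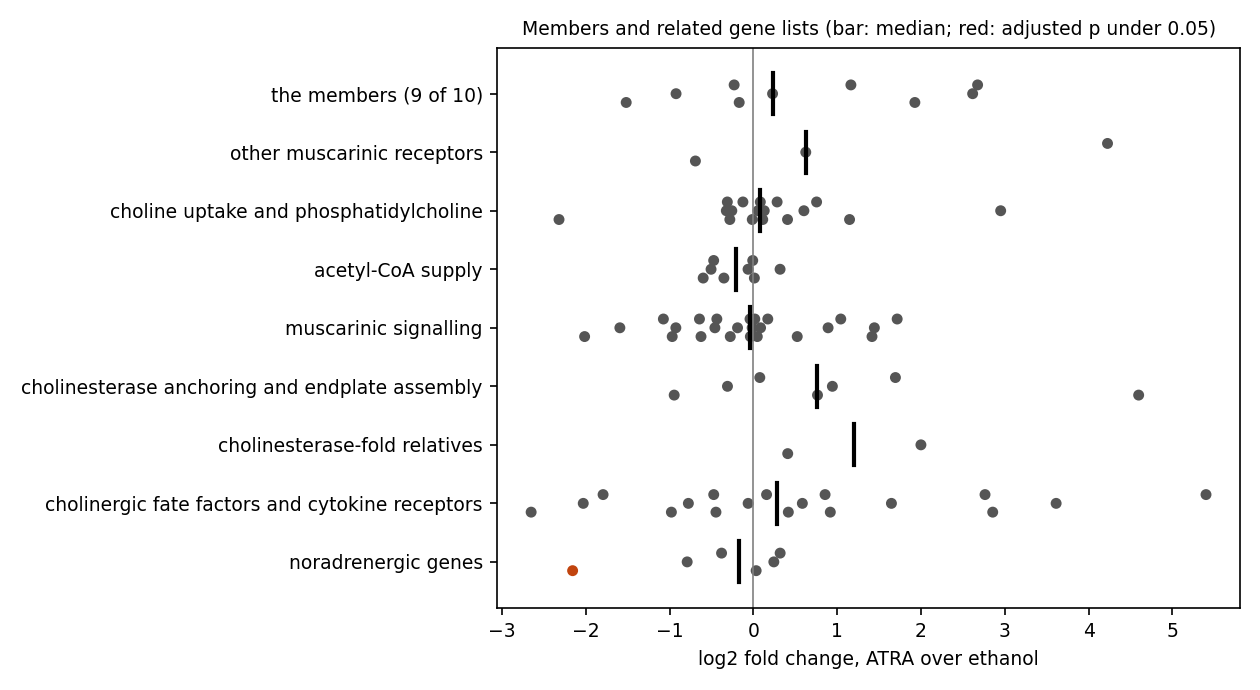
Log2 fold change of ATRA over ethanol (horizontal axis) for each tested gene of the members and of 8 related lists; black bars are medians and the red point is the single gene with an adjusted p under 0.05, SLC18A1. The members spread from -1.52 to 2.67 around a median of 0.23.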

How the data were processed

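RNA was sequenced in 2 ATRA and 2 ethanol libraries, grouped by their titles. The deposited values are raw read counts for each gene symbol; STAR 2.5.2b, featureCounts 1.5.1 and hg19 are named, per the submitters' processing notes. No source used here gives the annotation, the strand setting or the handling of shared reads. The fit used edgeR 4.0.16 in R 4.3.3 on all genes passing filterByExpr (minimum count 10), with TMM scaling and the robust quasi-likelihood test of treatment; 2 residual degrees of freedom remained. Adjustment was by Benjamini-Hochberg over 18900 genes, two-sided, with a threshold of 0.05. The SE is the log2 fold change over the square root of F, and the 95% interval uses it with the moderated degrees of freedom. Differences between same-numbered libraries use log2 CPM with a prior count of 2. Total counts were 12850462 to 19883465. The floor of 3 reads used for SLC5A7 covers counting error in the ethanol group only. Gene types, overlaps and lengths came from GENCODE 29; 2 list members were matched through older symbols. DESeq2 1.42.0 and limma 3.58.1 were alternatives. The procedure was tested on simulated data that held no effect of the library number. That test cannot show how the fit behaves where such an effect is present. All members are named; from each list the genes called (at most 2 a direction), or the 2 with the smallest p, are named if their mean log2 CPM was 1 or more; results for a few genes are not reported here. The members and lists were chosen with earlier results of these data known.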

Additional observations from a re-analysis of the deposited data

How the results depend on the processing

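The count of genes called over the whole table (103 higher, 29 lower) moved strongly with the fit, and with it the count of members called (0 and 0). With all genes that had 1 count or more, 1126 genes were higher and 695 lower (3.02% and 1.86% of 37299), with 3 members higher. DESeq2 gave 877 and 503 (5.03% and 2.89% of 17434), with 3 members higher. From limma-voom came 43 and 7 (0.228% and 0.037% of 18900), with 0. Protein-coding genes only, an alternative chosen after seeing the data, gave 192 and 82 (1.51% and 0.646% of 12703), with 2 members higher. Upper quartile factors gave 109 genes higher (0.577%), with 1 member, CHRM3. Leaving out 1 library gave 547 to 838 genes higher and 231 to 604 lower, with 2 to 3 members higher and a median of the members from 0.047 to 0.38. SLC44A1 ranged from -0.55 to 0.13 when a library was left out, turning sign without ethanol 2; the cause was not tested. The other 8 tested members kept their sign in all 12 alternatives, and the 4 ratios within libraries kept theirs in each of theirs. Same-numbered libraries share a number in their titles, which no label explains. Protein-coding genes took 73.6% of ATRA 1 and 73.4% of ethanol 1, against 84.4% of ATRA 2 and 84.2% of ethanol 2. Deviations from the group means correlated at 0.63 across genes between same-numbered libraries. With the replicate number as a block, 2325 genes were higher and 1773 lower (12.3% and 9.38%), with 4 members higher (CHRM3, COLQ, ACHE and SLC18A3) and 1 lower (PRIMA1). Low counts limit the precision for CHAT and SLC5A7. ACHE had 8 and 27 reads with ethanol, and its SE of 0.68 was 0.40 with the replicate number as a block.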
